A study of Mus musculus with 25 samples.

Results

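Immediate early genes are the genes that a cell switches on within minutes of a stimulus without making new protein first. In neurons, synaptic activity and calcium entry act through kinases on factors that already sit on the DNA, CREB at cyclic AMP response elements (CREs) and serum response factor at CArG boxes, and most products of the response are themselves transcription factors. Because the same genes answer to handling, warming and enzymatic digestion of tissue, they are also known as markers of cell isolation. The genes described here were the rows of the deposited expression table for Egr1, Egr2, Egr3, Fos, Fosb, Junb, Nr4a1, Arc, Ier2 and Btg2, chosen by symbol, with earlier results of these data known. Of the 10 genes named, 9 had a row among the 9931 genes with a symbol, and Egr3 was not analysed here.

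The study measured RNA in sorted neurons of the sensorimotor cortex, labelled cortical motor neurons though sorted by reporter and not by projection, to ask how neurons with and without the repressor REST respond to spinal cord injury (SCI). The 25 libraries came from C57BL/6 mice of both sexes, 12 female and 13 male, that were young adults carrying floxed alleles of REST (REST flx/flx) together with a tdTomato gene behind a floxed stop (STOP flx/flx TdTomato). All groups shared these alleles: the group labelled WT received AAV-Syn-GFP in the sensorimotor cortex and the group labelled REST cKO received AAV-Syn-Cre, both driven by the human synapsin promoter, so that genotype, virus and fluorescent reporter cannot be told apart. Mice then had a complete thoracic crush or a sham operation, and about 1000 live fluorescent cells per library were sorted after papain digestion at body temperature.

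In WT there were 4 libraries after sham surgery and 3 each at day 1, day 3 and day 7 after SCI. In REST cKO there were 3 libraries after sham surgery, 2 from day 1, 4 from day 3, and 3 taken on day 7. Values are log2 normalized counts as deposited, and since the table holds no read totals the depth of each library is unknown and no counting interval can be given. The study describes its replicates as mice, while the labels do not tie each library to a mouse, so p-values measure the spread between these libraries. Sex was uneven over the groups: all 3 WT libraries at day 7 were female, and all 3 REST cKO libraries in sham and all 3 at day 7 were male, while the other groups held both sexes. The labelled batch was uneven too. WT in sham, at day 1 and at day 7 held no library of batch 3, while every REST cKO group held 1. At day 1 the WT libraries were of batches 1 and 2 and those of REST cKO of batches 2 and 3, so genotype and batch partly coincide.

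Some facts of the whole series bear on every value below. Values under -2 sit among the lowest in the table and made up 2.77% to 29.5% of genes in a library, the highest share being in a WT library at day 3. Rest itself lay between -1.55 and -0.26 in WT sham and between -2.65 and -0.52 in REST cKO sham. At day 7 it lay between 0.26 and 2.74 in WT and between -1.21 and -0.33 in REST cKO, without overlap, as at day 3, but no comparison of Rest between genotypes passed the threshold (lowest adjusted p = 0.401, limma). The sequenced tags come from transcript ends and the sources used here do not say which exon was floxed, so Rest does not settle the labels.

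Markers of other cells were present in every library. All 16 microglial markers examined, such as Cx3cr1, P2ry12 and C1qa, were measured, and their mean per library ran from 2.49 to 3.15. The 16 of 17 neuronal markers with a row, such as Snap25, Syt1 and Slc17a7, averaged 0.32 to 1.90 per library. Astrocytic, oligodendrocytic and endothelial lists averaged 0.45 to 2.87, -1.22 to 2.57 and 1.27 to 2.56. Since microglia and endothelial cells also use immediate early genes, the part of these cells in the values below was not tested, and in bulk libraries fewer cells of a type and less RNA per cell cannot be told apart.

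**Figure D1:**
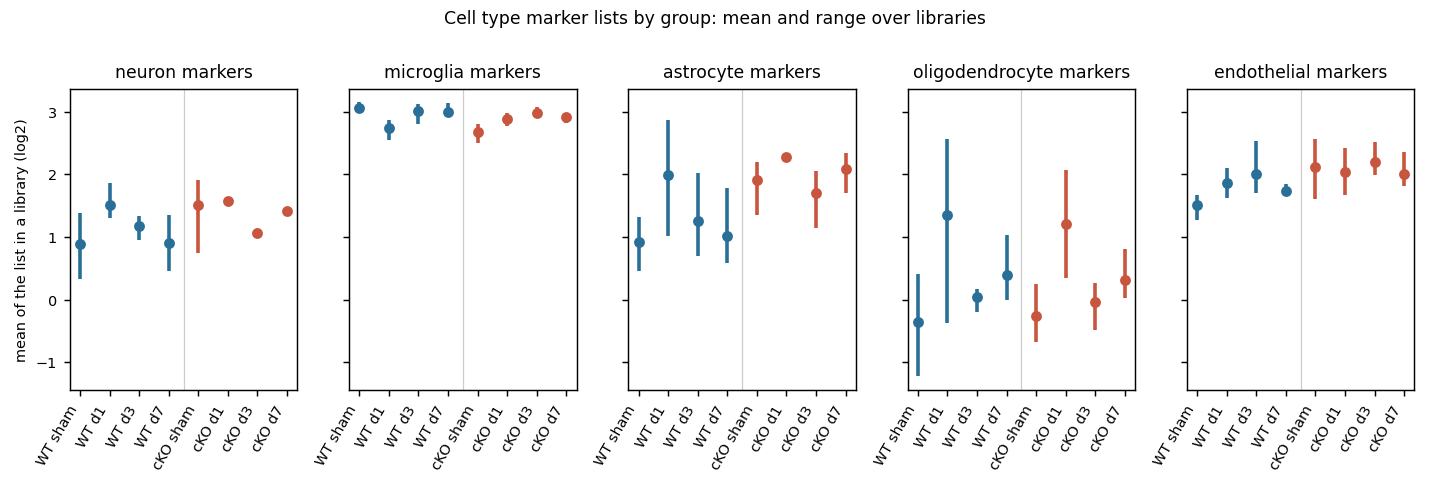
Mean log2 value of each cell type marker list in a library, by group. Points are group means over libraries and bars run from the lowest to the highest library, blue for WT and red for REST cKO. The microglial list stays between 2.49 and 3.15 in all 25 libraries, while the oligodendrocytic list spreads most widely in WT at day 1.

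The sequences upstream of these genes are shown because the response is classically read from CRE and CArG elements there. Windows of 250 bases before a RefSeq transcript start (GRCm38.p6) were searched for 6 of the members, namely Btg2, Egr2, Fos, Fosb, Junb and Nr4a1. Egr1 was left out of this search, and Arc and Ier2 had no window. Nothing is said here of these elements in those genes. All 6 held at least 1 core of the CRE, TGACG on either strand, in at least 1 window, against 17.7% of 32817 mouse promoter windows of the same length. Egr2 had 5 annotated starts, more than any other of these genes, so that its chance of a match was higher. The full CRE, TGACGTCA, which holds the core on each strand, was in Btg2 only among them and in 1.55% of all windows. Among the 6 genes searched, a CArG box on either strand was in Egr2 only, and 1.47% of all windows held it. The TATA box TATAAA, searched on the gene strand, was in Fos only and in 7.6% of windows, while the AP-1 site TGAGTCA (4.46%) and the EGR site GCGTGGGCG (0.536%) were found in none of the 6. These are matches of letters in a window and were not tied to binding in these libraries.

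The windows of Fos and Junb, the pair that varied together most closely, are given with those of Egr2 and Btg2, which hold the CArG box and the full CRE. Each is written 5′ to 3′ on the gene's strand and ends at the base before the start, capitals mark CRE cores and CArG boxes, and no annotated exon lies in any of the 4 windows.
Fos, chr12:85473640-85473889, plus strand: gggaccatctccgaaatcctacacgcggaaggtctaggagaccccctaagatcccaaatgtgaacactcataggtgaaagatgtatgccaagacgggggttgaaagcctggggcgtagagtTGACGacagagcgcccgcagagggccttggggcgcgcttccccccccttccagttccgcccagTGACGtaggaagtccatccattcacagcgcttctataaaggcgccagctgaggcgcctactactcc
Junb, chr8:84978749-84978998, minus strand: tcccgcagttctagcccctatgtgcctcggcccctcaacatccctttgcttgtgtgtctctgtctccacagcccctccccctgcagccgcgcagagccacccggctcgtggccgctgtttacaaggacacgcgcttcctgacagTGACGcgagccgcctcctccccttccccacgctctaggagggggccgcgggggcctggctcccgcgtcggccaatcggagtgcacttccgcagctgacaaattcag
Egr2, chr10:67537619-67537868, plus strand: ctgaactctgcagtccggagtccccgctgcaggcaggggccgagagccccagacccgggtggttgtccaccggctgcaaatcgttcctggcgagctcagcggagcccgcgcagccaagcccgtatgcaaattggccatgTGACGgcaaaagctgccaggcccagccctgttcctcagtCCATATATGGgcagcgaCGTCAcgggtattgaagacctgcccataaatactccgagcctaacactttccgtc
Btg2, chr1:134079156-134079405, minus strand: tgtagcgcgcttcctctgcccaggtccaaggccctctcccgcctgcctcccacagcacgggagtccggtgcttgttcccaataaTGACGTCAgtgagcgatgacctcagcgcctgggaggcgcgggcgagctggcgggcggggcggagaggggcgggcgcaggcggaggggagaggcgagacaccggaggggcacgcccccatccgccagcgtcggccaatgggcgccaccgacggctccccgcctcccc
Counted from the start, the CRE cores of Fos began 129 and 66 bases upstream and its TATA box 33 bases upstream. In Egr2 the CArG box began 72 bases upstream, between cores at 111 and 55 bases. The core of Junb began 106 bases upstream and the full CRE of Btg2 166 bases upstream.

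No immediate early gene passed the threshold after adjustment over all genes in any comparison. Across 13 comparisons of the 9 genes, 117 in all, in which the days of a genotype share its sham libraries, limma called 0 at an adjusted p of 0.1, and the lowest adjusted p was 0.571. Over all genes it called few: 1 in WT at day 3 (0.0101%), 2 in REST cKO at day 3 (0.0201%), 3 between genotypes in sham (0.0302%), 2 in the difference of day 7 effects (0.0201%), and 0 (0%) in the other comparisons. The study's own fit, by limma voom on normalized counts at the same threshold, reported many genes between genotypes at day 7. It also named Egr1 among genes increased by REST depletion. The absence of calls here holds for this fit of the deposited values. With limma an unadjusted p under 0.05 was reached in 10 of the 117 (8.55%), 5 of them positive and 5 negative. Over all genes and the same comparisons that share was 6.16%. A test for any difference among the 8 groups called none of the 9, with Egr1 the lowest (adjusted p = 0.581, limma), while it called 1 of all genes (0.0101%). With the 8 groups of each gene ordered by their means, 1 of 63 pairs of neighbours did not overlap (1.59%), Junb in WT at day 3 and in REST cKO at day 1, against 1.23% of such pairs over all genes.

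**Figure D2:**
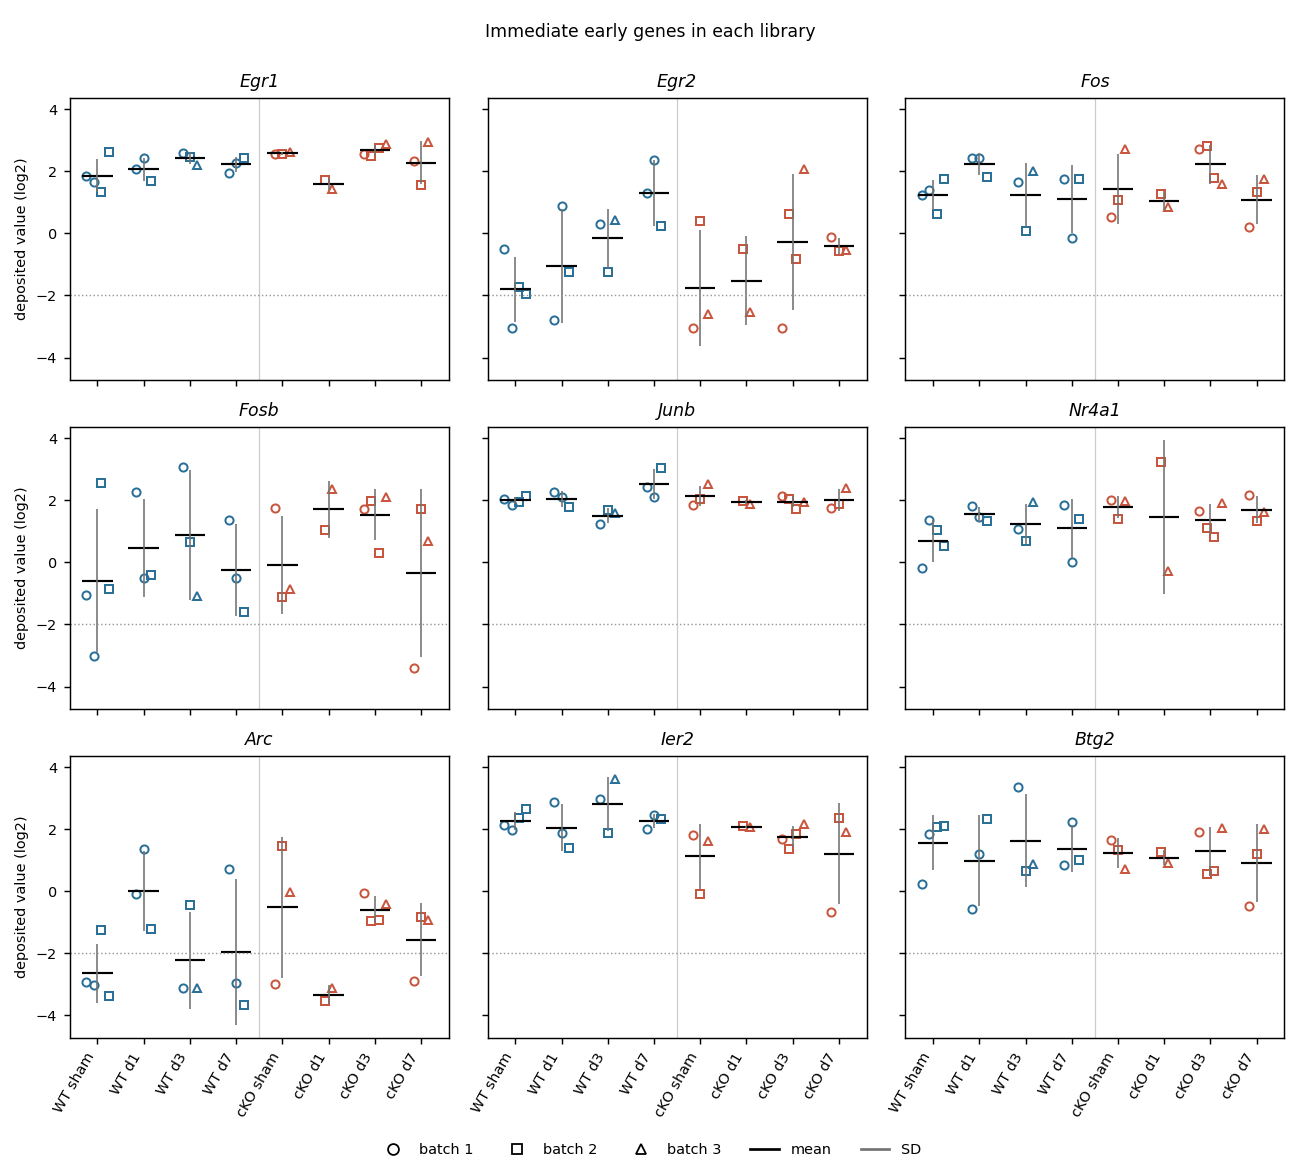
Deposited log2 value of each immediate early gene in each of the 25 libraries. Open symbols are libraries, shaped by the labelled batch, black bars are group means, grey bars are 1 SD either side, and the dotted line is at -2. Egr1 and Junb stay between 1.23 and 3.05 in all libraries, whereas Arc, Egr2 and Fosb range from below -2 to above 1.

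The genes differed widely in how steady they were among libraries of the same group. Junb, an AP-1 partner of the FOS proteins, had a within-group SD of 0.28 log2 units, smaller than all but 3.07% of genes. Egr1, a zinc finger transcription factor induced by activity and injury, had an SD of 0.38, smaller than all but 6.65% of genes. Fos, which pairs with JUN proteins to form AP-1, had an SD of 0.79, Ier2, a small nuclear protein, 0.80, and Nr4a1, an orphan nuclear receptor, 0.83. Btg2, an antiproliferative cofactor of mRNA decay, had an SD of 1.03. Arc, which acts at synapses and not on DNA, had an SD of 1.45, Egr2, a zinc finger factor related to Egr1, 1.49, and Fosb, a second FOS protein, 1.83. For Fosb, 97.2% of genes had a smaller SD. Values under -2 occurred for Arc in 11 of 25 libraries, for Egr2 in 6 and for Fosb in 2, and for none of the other 6 genes.

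Arc gave the widest spread between groups at day 1. In WT sham its log2 values were -2.92, -3.02, -1.26 and -3.37, and at day 1 after SCI they were -0.10, 1.35 and -1.23. In REST cKO sham they were -3.00, 1.48 and -0.03, and at day 1 they were -3.55 and -3.11. All 3 WT day 1 libraries thus lay above all 4 WT sham libraries, the nearest by less than 0.1, and both REST cKO day 1 libraries lay below the 3 of their sham group. The fitted differences, which allow for the sequencing components and so depart from differences of the means, were 3.08 in WT (SE 1.19, 95% interval 0.64 to 5.53, adjusted p = 0.656, limma) and -2.62 in REST cKO (SE 1.33, adjusted p = 0.924). The REST cKO value moved with single sham libraries, being -4.37 without the one at -3.00 and -1.65 without the one at 1.48. The difference between the genotypes' day 1 effects was -5.70 (SE 1.75, 95% interval -9.31 to -2.10, adjusted p = 0.706, limma). Both REST cKO day 1 libraries, 3 of the 4 WT sham libraries and 1 of the 3 REST cKO sham libraries lay under -2, among the lowest values of the table, so the size of these differences is uncertain. REST cKO libraries at day 1 were 4.18 lower than WT libraries at day 1 (SE 1.53, adjusted p = 0.999, limma), without overlap.

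At the other times Arc overlapped. Its log2 values were -3.12, -0.43 and -3.12 in WT at day 3 and 0.71, -2.95 and -3.65 at day 7. In REST cKO they were -0.07, -0.95, -0.94 and -0.40 at day 3 and -2.90, -0.83 and -0.94 at day 7. So each of these WT groups held 1 library above -1 beside others near the bottom of the range. Beside the day 1 result, the neuronal list averaged 1.31 to 1.86 in WT at day 1 against 0.32 to 1.38 in WT sham, the astrocytic list 1.01 to 2.87 against 0.45 to 1.32, and the microglial list 2.55 to 2.87 against 2.98 to 3.15. The oligodendrocytic list had a mean of 1.35 in WT at day 1 (-0.37 to 2.57) against -0.36 in sham (-1.22 to 0.41). At an unadjusted p under 0.05 with limma, 5 of 9 astrocytic, 4 of 11 oligodendrocytic, 3 of 16 neuronal and 1 of 12 endothelial genes were higher and 1 of 16 microglial genes was lower, and none passed an adjusted p of 0.1. Over all genes 6.43% reached that unadjusted p in this comparison, in either direction. In REST cKO at day 1, where Arc read lower, the oligodendrocytic list averaged 1.21 (0.35 to 2.06) against -0.26 in sham (-0.67 to 0.25), the astrocytic list averaged 2.23 to 2.33 against 1.35 to 2.19, without overlap, and the neuronal list 1.55 to 1.61 against 0.74 to 1.90, with overlap. The part of cell makeup in the Arc values was not tested.

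Among the FOS and JUN genes at day 1 in WT, Fos read 2.44, 2.43 and 1.82, against 1.22, 1.39, 0.61 and 1.75 in sham. The injured libraries lay just above the sham libraries without overlap, and the fitted difference was 1.22 (SE 0.62, 95% interval -0.06 to 2.50, adjusted p = 0.774, limma). Its dimer partner Junb read 2.25, 2.10 and 1.77 at day 1 and 2.05, 1.86, 1.93 and 2.14 in sham, an overlap with a fitted difference of 0.06. In WT at day 1, 2 of the 9 genes, Arc and Fos, were higher without overlap, where 4.34% of all genes were and 7.02% did not overlap in either direction. Of the 9 estimates 7 were positive (55.9% over all genes), with a median of 0.58 against 0.12 over all genes.

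Between genotypes Fos was without overlap at day 1 only, and no such comparison of Fos passed the threshold. REST cKO libraries at day 1 read 1.27 and 0.84, below all 3 WT libraries, a fitted difference of -1.83 (SE 0.80, adjusted p = 0.999, limma) that was -1.18 without the sequencing components. At day 3 they read 2.71, 2.81, 1.78 and 1.58, against 1.64, 0.08 and 2.02 in WT, an overlap with a fitted difference of 1.38 in the other direction (SE 0.64, adjusted p = 0.78, limma), which was 0.74 without the WT library at 0.08. In sham the REST cKO values were 0.51, 1.07 and 2.70, and at day 7 they were 0.19, 1.32 and 1.75, against 1.74, -0.16 and 1.76 in WT. The sham and day 7 ranges of the genotypes overlapped. With 2 libraries in the REST cKO group at day 1, 18.6% of all genes did not overlap between genotypes there, 5.75% being lower, against 2 of these 9 genes, both lower.

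Junb at day 3 in WT read 1.23, 1.69 and 1.60, below all sham libraries, with a fitted difference of -0.58 (SE 0.36, adjusted p = 0.793, limma). The library at 1.23 was the one with the highest share of values under -2, 29.5%. The endothelial list separated these 2 groups too, at 1.69 to 2.53 against 1.27 to 1.67 in sham, and its part was not tested. Junb was the only one of the 9 genes without overlap in that comparison, where 6.54% of all genes did not overlap and 2.56% were lower. In REST cKO at day 3 Junb read 2.14, 2.04, 1.71 and 1.94, above the WT libraries of that day by a fitted 0.53 (SE 0.35, adjusted p = 0.86, limma), the nearest libraries being 1.69 and 1.71. It too was alone among the 9 genes in that comparison, against 7.59% of all genes, 3.6% higher. Its WT day 7 values were 2.42, 2.10 and 3.05, overlapping sham. Fosb ranged from -3.40 to 3.08 over the 25 libraries, from -3.00 to 2.56 in WT sham alone, and its groups overlapped in all 10 pairwise comparisons.

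The EGR genes separated at different times. Egr2 in WT sham read -0.49, -3.03, -1.71 and -1.95, and at day 7 it read 1.29, 2.35 and 0.22. All day 7 libraries were above all sham libraries, and the fitted difference was 3.14 (SE 1.23, 95% interval 0.62 to 5.66, adjusted p = 0.571, limma), the lowest adjusted p of the 117. With a term for sex it was 2.75 (adjusted p = 0.675, limma). The endothelial list lay just above sham at day 7 in WT, at 1.674 to 1.849 against 1.27 to 1.671, and its part was not tested. Group means of Egr2 in WT were -1.80 ± 1.04 (SD, n = 4) in sham, -1.06 ± 1.84 (n = 3) at day 1, -0.17 ± 0.93 (n = 3) at day 3 and 1.29 ± 1.06 (n = 3) at day 7, and the groups at days 1 and 3 overlapped sham. Egr2 was the 1 gene of 9 without overlap in WT at day 7, where 6.87% of all genes did not overlap and 2.62% were higher.

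In REST cKO, Egr2 did not separate by time. It read -3.05, 0.40 and -2.59 in sham, -0.51 and -2.54 at day 1, -3.04, 0.62, -0.82 and 2.09 at day 3, and -0.11, -0.56 and -0.53 at day 7. The day 7 libraries lay inside the range of their sham group and below the WT libraries of that day, with a fitted difference of -1.79 (SE 1.30, adjusted p = 0.695, limma). The neuronal list separated the genotypes at day 7 too, at 1.37 to 1.45 in REST cKO against 0.46 to 1.35 in WT. Its part in the Egr2 difference was not tested. At day 7 the WT libraries were all female and the REST cKO libraries all male, so genotype and sex cannot be told apart within that day, and with a term for sex estimated over all groups the difference was -1.03 (adjusted p = 0.892, limma). Egr2 was the 1 gene of 9 without overlap there, where 12.4% of all genes did not overlap and 4.38% were lower. The difference between the genotypes' day 7 effects was -1.93 (SE 1.95, 95% interval -5.93 to 2.08), so that an equal effect and a large difference were both within the interval.

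Egr1 varied little but separated in REST cKO. It read 2.55, 2.55 and 2.62 in REST cKO sham and 1.72 and 1.44 at day 1, without overlap, a fitted difference of -1.06 (SE 0.39, 95% interval -1.85 to -0.26, adjusted p = 0.886, limma). The astrocytic list separated these 2 groups too, at 2.23 to 2.33 against 1.35 to 2.19. So did the oligodendrocytic list, at 0.35 to 2.06 against -0.67 to 0.25. In this comparison 20.4% of all genes did not overlap. The part of these lists in the Egr1 values was not tested. In WT Egr1 read 1.85, 1.65, 1.33 and 2.61 in sham and 2.08, 2.43 and 1.67 at day 1, an overlap with a fitted difference of 0.07. The WT sham library at 2.61 stood as high as the REST cKO sham libraries. The genotypes' day 1 effects differed by -1.13 (SE 0.51, adjusted p = 0.814, limma), or by -0.61 without the WT day 1 library at 2.43. In sham the fitted REST cKO value was 0.93 above WT with overlap (SE 0.38, adjusted p = 0.623, limma), and in WT at day 3, where it read 2.60, 2.46 and 2.21, it was 0.76 above sham with overlap (SE 0.37, adjusted p = 0.713, limma). At days 3 and 7 Egr1 ranged from 2.49 to 2.89 and from 1.55 to 2.95 in REST cKO, overlapping WT at both.

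A limit applies to Egr1 alone among the 9. The deposited values of nearly all genes were uncorrelated with the sequencing components recorded for each library (correlation at most 3.94e-10), since the authors regressed them out, whereas 140 genes departed from this and Egr1 was 1 of them, with a correlation of 0.03. Why was not tested.

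**Figure D3:**
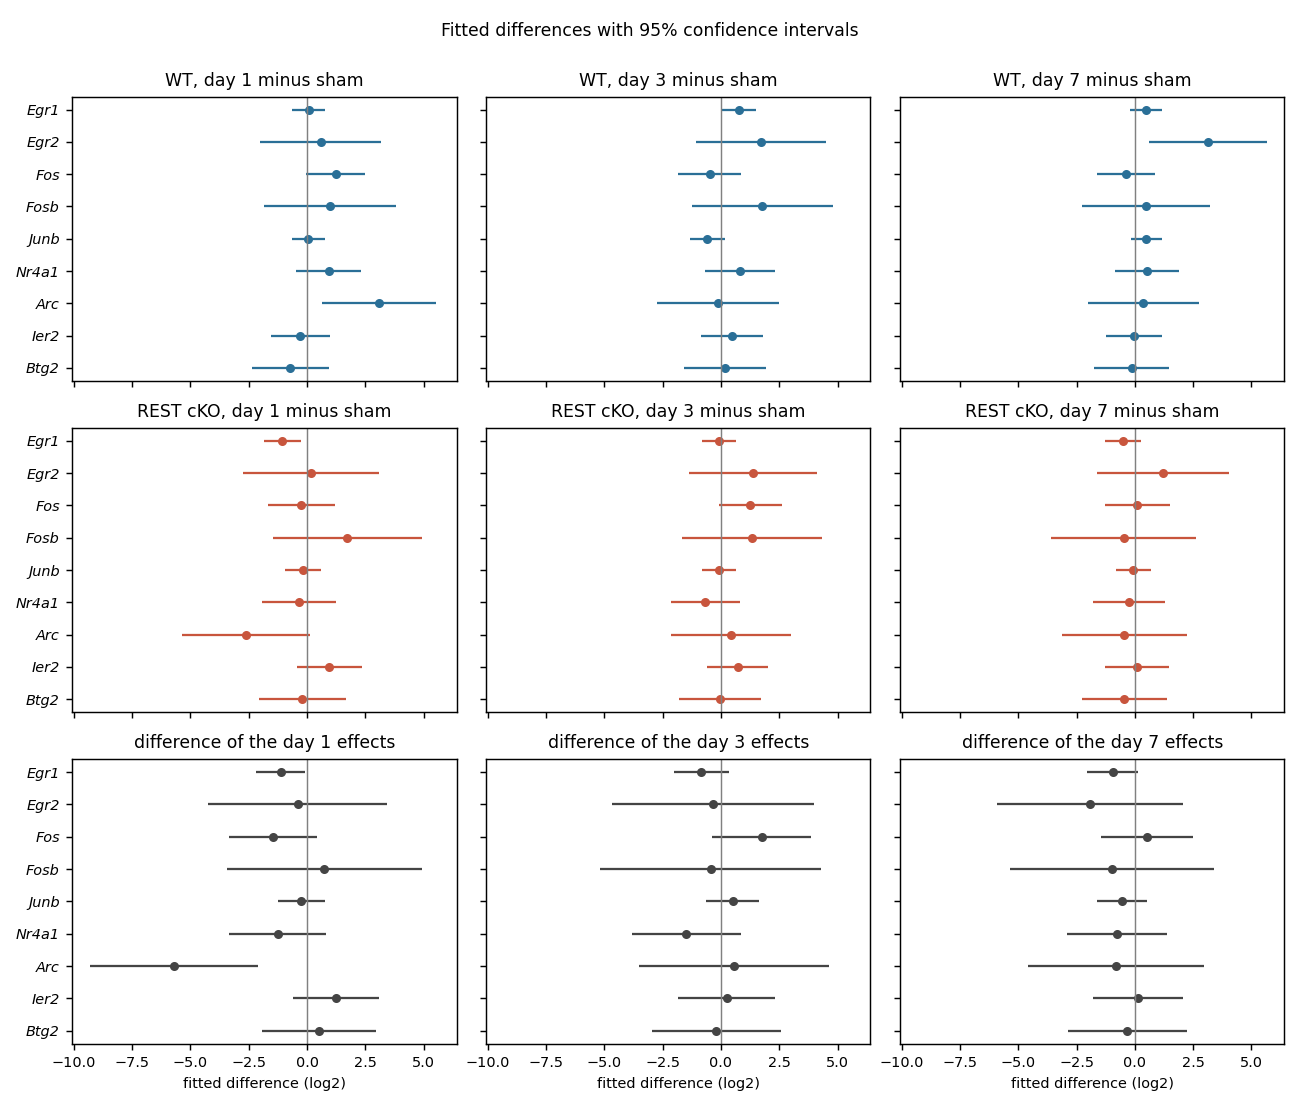
Fitted log2 difference of each gene with its 95% confidence interval from limma, for each day against sham in WT (top, blue) and REST cKO (middle, red), and for the REST cKO effect minus the WT effect (bottom, grey). Arc and Egr2 have wide intervals that lie above 0 at day 1 and day 7 in WT, but none of the 9 genes passed an adjusted p of 0.1 in any panel.

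Nr4a1 and Ier2 differed between genotypes in sham without overlap, in opposite directions. Nr4a1 read -0.19, 1.38, 1.03 and 0.52 in WT sham and 2.00, 1.39 and 1.98 in REST cKO sham, a fitted difference of 1.41 (SE 0.75, adjusted p = 0.748, limma), the nearest libraries being 1.38 and 1.39. Ier2 read 2.13, 1.97, 2.37 and 2.64 in WT sham and 1.82, -0.08 and 1.64 in REST cKO sham, a fitted difference of -1.24 (SE 0.67, adjusted p = 0.759, limma) that was -2.27 without the REST cKO library at 1.82. The REST cKO sham libraries were all male and those of WT of both sexes, and with a term for sex the differences were 1.84 for Nr4a1 and -1.37 for Ier2. These were 2 of the 9 genes without overlap in sham, where 7.86% of all genes did not overlap, 4.02% higher and 3.85% lower. Marker lists separated the same sham groups without overlap: the microglial list averaged 2.49 to 2.80 in REST cKO against 2.98 to 3.15 in WT, and the astrocytic list 1.35 to 2.19 against 0.45 to 1.32. Of their genes, 6 of 16 microglial markers were lower and 5 of 9 astrocytic markers higher at an unadjusted p under 0.05 with limma, and none passed an adjusted p of 0.1. Over all genes 6.91% reached that unadjusted p in this comparison, in either direction. The part of these markers in the sham differences of Nr4a1, Ier2 and Egr1 was not tested. At day 1 the genotypes overlapped for both genes, with Nr4a1 at 3.22 and -0.28 in the REST cKO libraries, the highest and the lowest value of that gene in the whole series.

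Ier2 in REST cKO at day 1 read 2.10 and 2.06, above its sham libraries, a fitted difference of 0.95 (SE 0.68, adjusted p = 0.944, limma) that was 1.63 without the sham library at 1.82 and 0.22 without the one at -0.08. With Arc and Egr1, both lower, it made 3 of 9 genes without overlap in that comparison. There the sham group has 3 and the injured group 2 libraries, and 20.4% of all genes did not overlap, 13.9% higher and 6.46% lower. At days 3 and 7 in REST cKO none of the 9 genes was without overlap from sham, against 6.69% and 10.7% of all genes. Ier2 reached its highest group mean in WT at day 3, at 2.81, with libraries at 2.96, 1.88 and 3.60, overlapping sham.

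Btg2 showed the least between groups. Its group means ran from 0.91 in REST cKO at day 7 to 1.64 in WT at day 3, a range of 0.72 log2 units that was smaller than its within-group SD of 1.03, and its groups overlapped in all 10 pairwise comparisons. The test for any difference among groups gave an adjusted p of 0.996 (limma). For Btg2 the 95% interval of the WT day 1 difference, -2.38 to 0.94, still held changes of more than 2 log2 units downward.

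Co-variation of the genes over libraries was assessed because handling and sorting of cells are known to induce these genes together. Each gene's values were expressed as deviations from its group mean, and Pearson's r was computed for the 36 pairs over 25 libraries. The median r was 0.0437, with 20 pairs positive and 16 negative and a range from -0.271 to 0.622. Each gene's r with the 9922 other genes had a median of -0.00555 and quartiles of -0.187 and 0.18, and 30.6% of the 36 pairs lay above that upper quartile. By this measure the 9 genes did not rise and fall as 1 block in the deposited values. The authors had already corrected these values for batch and regressed out sequencing components, and both steps can remove variation shared among libraries. Whether the genes moved together before these steps was not tested. Arc, Egr2 and Fosb also held values among the lowest in the table, so their r are less certain. Libraries share batch and handling, so these r are descriptions, and the part of sorting in them was not tested.

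Of the 36 pairs, 1 reached a permutation p under 0.05, Fos and Junb, which also had the highest r and is described for that reason. Their r was 0.622 (p = 0.0264, permutation test, two-sided, 100000 shuffles within groups, not adjusted for the 36 pairs) and Spearman's rho was 0.606 (permutation p = 0.02). Without the 2 libraries farthest from the median of Fos, r was 0.69, and without those farthest for Junb it was 0.583. Leaving out any 1 library gave 0.519 to 0.799. Within batch 1 (10 libraries) r was 0.672 and within batch 2 (10 libraries) 0.419, while batch 3 held 5 libraries, too few for a value. Of the other genes, 0.443% reached that r with Fos and 0.454% with Junb. With group means left in, r was 0.305.

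**Figure D4:**
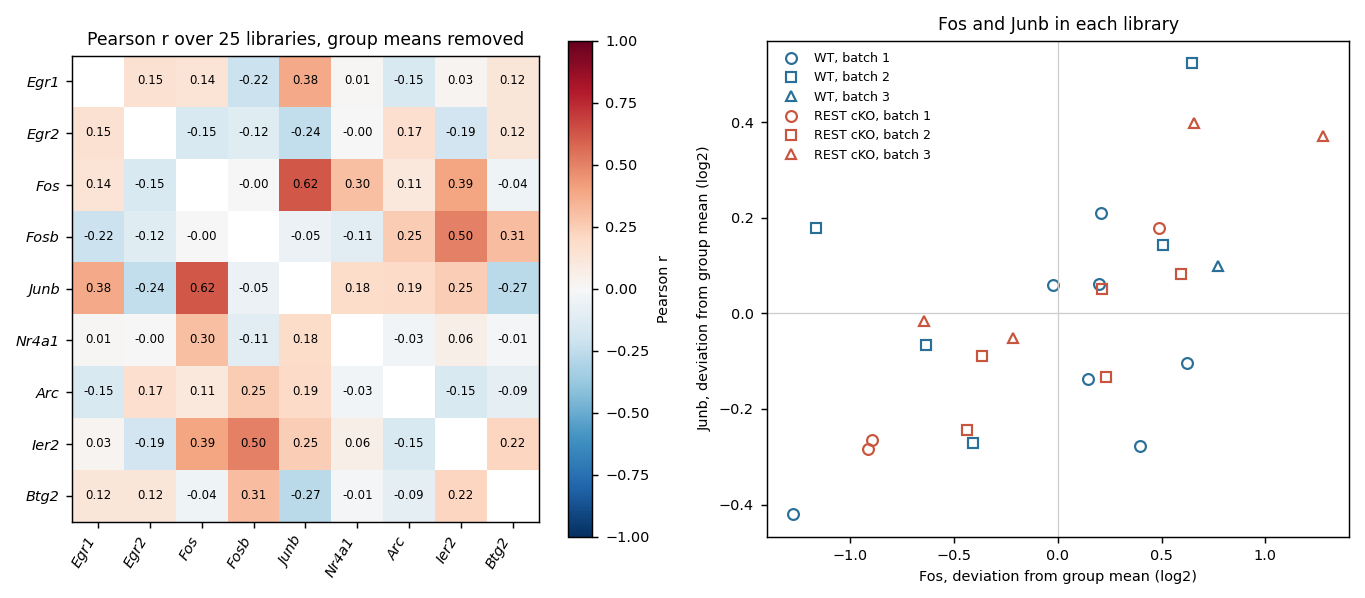
Left, Pearson r of each pair of the 9 genes over 25 libraries after subtracting group means, from -1 (blue) to 1 (red). Right, the deviations of Fos and Junb in each library in log2 units, coloured by genotype and shaped by batch. Fos and Junb have the highest r, 0.622, and the 36 pairs as a whole centre near 0.

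Further pairs were weaker. Fosb and Ier2 had r = 0.502 (permutation p = 0.0852), which ranged from 0.252 to 0.658 on leaving out 1 library. Fos and Ier2 had r = 0.391 and Egr1 and Junb 0.38. Fos and Fosb, both of the FOS family, had r = -0.00232. Arc, which carried the largest day 1 estimates, had a median r of 0.038 with the other 8 genes, and Egr2 one of -0.0631. The lowest pair was Junb and Btg2, at -0.271.

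The library with the lowest mean standardized deviation of the 9 genes, -0.827, was a REST cKO library at day 7, in which 3 of the 9 were above the group mean. That REST cKO library held the lowest Fosb (-3.40) and Ier2 (-0.65) of the series. The highest mean, 0.749, was in another library of the same group of 3, where deviations sum to 0, so that 1 low library raises the others. In the remaining 23 libraries that mean lay between -0.414 and 0.400. Counted by genes instead, a WT library at day 1 had the fewest above its group mean, 1 of 9, with a mean standardized deviation of -0.414. Of the REST cKO pair at day 7, the low library was of batch 1 and the high one of batch 3, and the share of all values under -2 was 10.7% in the low one and 2.77% in the high one. Whether this share sets the deviations was not tested.

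Against the other lists, the deviations of Fos and Ier2 correlated best with the mean of 25 heat shock and chaperone genes (r = 0.492 and 0.496, 25 libraries). Arc correlated with the mean of the endothelial list at -0.527 and with that of 38 other immediate early and early response genes at 0.451. Btg2 correlated with the astrocytic list at -0.501 and Nr4a1 with the oligodendrocytic list at -0.455. Gene by gene the values were nearer 0: over the 25 heat shock and chaperone genes the median r was 0.0691 with Fos and 0.0913 with Ier2, with 16 of 25 positive for each, and over the 38 early genes it was 0.0839 with Arc, with 25 positive. The median was -0.234 over the endothelial genes with Arc, -0.303 over the astrocytic genes with Btg2 and -0.234 over the oligodendrocytic genes with Nr4a1. With the microglial list the 9 genes lay between -0.147 and 0.286. These are the extremes of many values computed and are given without a test.

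The genes whose deviations followed the mean of the 9 most closely over 25 libraries were Ash2l (r = 0.797), P2rx4 (0.792), Lyar (0.777), Trmt61a (0.772) and Letmd1 (0.73), followed by Zfp994, Klhl4, Prelid3b, Pla2g7 and Slf1 down to 0.696. None is an immediate early gene of the lists used. These are the highest of 9922 values, and a pick of the highest is high by construction.

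Other genes of the pathway were not called either. Of 38 other immediate early and early response genes measured, from a list of 50 that includes Jun, Atf3, Dusp1, Klf4 and Homer1, 0 passed an adjusted p of 0.1 in any of 13 comparisons with limma. An unadjusted p under 0.05 occurred in 29 of 494 tests, 16 positive and 13 negative, or 5.87%, against 6.16% over all genes. For 35 upstream genes of the response, such as Creb1, of 43 listed, 22 of 455 tests reached it (4.84%), 16 positive and 6 negative, and none passed. For 25 of 27 heat shock and chaperone genes the share was 13.8%, 26 positive and 19 negative, and again 0 passed.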

How the data were processed

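RNA of sorted cortical neurons was profiled by 3′ mRNA-seq (QuantSeq FWD) in 25 mouse libraries. Per the labels and the methods, the authors aligned reads with STAR to mm10, quantified with Salmon, summarized to genes with tximport, scaled by geometric means in DESeq2, applied RUV against batch variation and kept only genes detected in enough samples. The deposited values are log2 normalized counts, from which the authors regressed sequencing components. The header names no log base, which was read from the study's axis labels. Columns of the authors' own fold changes and p-values were not used.

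limma 3.58.1 was fitted to 9931 genes with 8 group means and the 2 recorded sequencing components, with a variance trend, Benjamini-Hochberg adjustment over all genes and a threshold of 0.1. No pseudocount was added, and 24 rows without symbol were left out. RUV and the regression can also remove real variation shared with batch or components, and fitting components again costs degrees of freedom. Pairs of genes were correlated after subtracting group means, with 100000 permutations within groups. Both scripts were tested on simulated data. Alternatives left out each library, the components or low genes, or added batch, sex, library weights or the share of low values. The genes and lists were chosen with earlier results of these data known. The genes named beside the 9 are the 10 most like their mean, and list genes past the threshold, of which there were 0. Depth per library is unknown.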

Additional observations from a re-analysis of the deposited data

Results flagged for a closer look

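In WT sham, 1 library read 0.24 for Btg2 while the other 3 read 1.85, 2.06 and 2.10. The gap to the nearest library was 0.861 of the group's range, above Dixon's 95% critical value for 4 samples. Of the 18 sets of 4 libraries examined (9 genes in WT sham and in REST cKO at day 3) this was the 1 that stood apart, and chance alone gives about 1 in 20. Leaving that library out called 0 of the 9 genes in any comparison.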

How the results depend on the processing

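Under every alternative run, 0 of the 9 genes were called in each comparison, at an adjusted p of 0.1 or 0.05, and leaving out any 1 library also called 0. Where this left 1 library in REST cKO at day 1, that library was assumed to vary like the other groups. Arc and Egr2 have a mean under 0 and were not fitted when low genes were left out. The lowest adjusted p under any alternative was 0.247, for Arc in WT at day 1 with a weight for each library. The differences with an unadjusted p under 0.05, and those without overlap, kept their direction throughout. Arc in WT at day 1 ran from 2.35 to 3.52, and Egr2 in WT at day 7 from 2.54 to 3.64. For Arc, the difference between the genotypes' day 1 effects ran from -7.51 to -4.74. The Arc difference between genotypes at day 1 ran from -4.85 to -3.32. The median r of pairs ran from 0.0301 to 0.119 under other settings and from 0.00656 to 0.108 on leaving out 1 library. Ier2 in REST cKO at day 1 moved most in proportion, from 0.22 to 1.63. Between genotypes, Fos at day 1 was -1.18 without the components, Junb at day 3 was 0.35 with a term for the share of low values, and Egr2 at day 7 was -1.03 with a term for sex. No paired analysis was possible because the library numbers in the labels are unique and no number is shared between groups. Groups of 2 to 4 libraries leave intervals several log2 units wide for Arc, Egr2 and Fosb.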
